A study of Mus musculus with 6 samples.

Results

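Clade B serpins are the intracellular serpins, and 10 of them that are known from squamous epithelium were followed here in mouse epidermal keratinocytes: Serpinb1a, Serpinb2, Serpinb3a, Serpinb3b, Serpinb3c, Serpinb5, Serpinb7, Serpinb8, Serpinb12 and Serpinb13. They were chosen by symbol as a gene family, and all 10 were found among the 45513 gene identifiers of the count table. Bulk RNA sequencing with paired reads of 100 bases compared keratinocytes from 3 knockout mice with keratinocytes from 3 control mice, and each library is 1 mouse. Knockout mice carried Lama3flox/flox, in which LoxP sites surround exons 50 to 53 of Lama3, the gene for the alpha chain of laminin 332, together with K14-CreERT. The Cre recombinase carries the mutated hormone-binding part of the human estrogen receptor, is driven by keratin 14 in basal keratinocytes, and was switched on by chow with 400 mg of tamoxifen citrate per kg. Controls are described by the submitters as Lama3wt/flox with K14-CreERT, so they carried the Cre and 1 floxed allele, although their genotype label reads wild type; both groups were on C57BL/6, and no age or duration of feeding was used here. Deletion follows the keratin 14 promoter, so cells outside that lineage keep the gene, and whether the control mice ate the same chow is not stated outright.

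Serpins inhibit proteases by offering a reactive loop as bait: the protease cuts the loop, and the serpin folds over and traps it. Clade B members lack a classical signal peptide and act mostly inside the cell, where they shield it from its own lysosomal proteases or from those of leukocytes. In stratified epithelia they are abundant in differentiating layers, and their human counterparts in the squamous cell carcinoma antigen group are known markers of inflamed skin.

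Total counts per library ran from 20126395 to 28473479, and 15513 genes had enough counts to be tested. With edgeR, 2693 of them (17.4%) were higher and 2919 (18.8%) were lower in knockout keratinocytes at an adjusted p under 0.05, together 36.2%. With upper-quartile scaling the same comparison gave 1756 higher and 3988 lower, and the median log2 difference over all genes moved from -0.02 to -0.17. Lama3 itself was at 97.3, 98.9 and 79.2 CPM (counts scaled to the library total) in knockout libraries 1 to 3, against 141, 142 and 114 CPM in control libraries 1 to 3, a log2 difference of -0.53 (SE 0.14, adjusted p = 0.0215). Gene-wide counts include exons outside the deletion, so this drop is not a measure of how many cells lost the floxed exons.

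The genes lie in 2 groups. On chromosome 1, 12 clade B genes occupy 749 kb (chr1:106861173-107610484, GRCm38), and 9 of the 10 genes followed here are among them; Serpinb1a lies with 14 other clade B genes on chromosome 13 (chr13:32842092-34002794). Within the first group, Serpinb3a, Serpinb3b and Serpinb3c are close tandem copies, with coding sequences 92.9% identical between Serpinb3a and Serpinb3b, 91.2% between Serpinb3a and Serpinb3c and 93.1% between Serpinb3b and Serpinb3c. The similarity extends upstream. The 250 bases before each RefSeq transcription start (RefSeq, GRCm38.p6, all on the minus strand) are shown. The reason is that genes with very different values, given further on, have closely similar windows before a RefSeq start. The windows lie at chr1:107052304-107052553 for Serpinb3a, chr1:107161115-107161364 for Serpinb3b and chr1:107278372-107278621 for Serpinb3c. Capitals mark the letters TATAAA.
Serpinb3a: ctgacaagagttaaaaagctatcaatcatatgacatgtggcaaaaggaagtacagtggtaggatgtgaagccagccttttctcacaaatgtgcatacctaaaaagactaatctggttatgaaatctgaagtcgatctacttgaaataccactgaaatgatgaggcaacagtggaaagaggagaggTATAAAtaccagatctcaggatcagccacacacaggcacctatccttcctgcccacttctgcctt
Serpinb3b: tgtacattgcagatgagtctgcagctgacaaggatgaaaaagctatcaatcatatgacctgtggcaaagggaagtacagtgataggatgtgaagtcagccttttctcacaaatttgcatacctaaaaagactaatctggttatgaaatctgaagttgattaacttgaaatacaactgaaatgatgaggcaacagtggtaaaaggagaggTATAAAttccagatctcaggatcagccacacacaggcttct
Serpinb3c: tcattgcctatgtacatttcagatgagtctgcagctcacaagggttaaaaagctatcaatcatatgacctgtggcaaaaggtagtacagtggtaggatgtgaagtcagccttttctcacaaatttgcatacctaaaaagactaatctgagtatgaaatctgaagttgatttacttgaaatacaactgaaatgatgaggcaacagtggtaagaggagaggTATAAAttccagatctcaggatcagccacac
Identity over the aligned stretch was 92.5% between Serpinb3a and Serpinb3b (226 columns), 94.0% between Serpinb3a and Serpinb3c (216 columns) and 95.4% between Serpinb3b and Serpinb3c (240 columns). All 3 hold TATAAA, which begins 65 bases before the annotated start in Serpinb3a, 41 in Serpinb3b and 31 in Serpinb3c. TATAAA, searched on either strand, is in 12.4% of 32851 mouse windows of this length. It is not particular to these copies. Of the 8 genes followed that had a window, 6 held it, Serpinb2, Serpinb7 and Serpinb12 among them. It is left unmarked in the stretches printed below.

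A window was available for 8 of the 10 genes; Serpinb1a and Serpinb13 had none. The pattern TGANTCA, a loose form of the AP-1 motif with any base at N, was sought on either strand. It occurred in the windows of the other 5 genes that had one, Serpinb2, Serpinb5, Serpinb7, Serpinb8 and Serpinb12. None of the 3 Serpinb3 windows held it, while 2217 of 32851 windows in the genome (6.75%) did. Serpinb10 and Serpinb11, the other chromosome 1 clade B genes with a window outside the Serpinb3 copies, hold it too, so all 7 of these genes do, and 0 of 14 clade B genes with a window on chromosome 13 do. The 150 bases upstream of these 5 genes, all on the plus strand, are shown with the motif in capitals because the Serpinb3 copies lack it; their positions are chr1:106861025-106861174 for Serpinb5, chr1:106934299-106934448 for Serpinb12, chr1:107422539-107422688 for Serpinb7, chr1:107511273-107511422 for Serpinb2 and chr1:107589856-107590005 for Serpinb8.
Serpinb5: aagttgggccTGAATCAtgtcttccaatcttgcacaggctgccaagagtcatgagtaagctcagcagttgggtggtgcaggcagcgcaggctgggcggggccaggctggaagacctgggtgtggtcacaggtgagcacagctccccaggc
Serpinb12: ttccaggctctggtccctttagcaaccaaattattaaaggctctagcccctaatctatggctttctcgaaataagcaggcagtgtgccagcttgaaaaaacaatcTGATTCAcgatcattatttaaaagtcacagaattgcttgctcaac
Serpinb7: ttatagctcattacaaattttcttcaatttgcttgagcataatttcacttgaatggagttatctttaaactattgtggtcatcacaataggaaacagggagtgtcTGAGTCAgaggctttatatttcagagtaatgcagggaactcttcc
Serpinb2: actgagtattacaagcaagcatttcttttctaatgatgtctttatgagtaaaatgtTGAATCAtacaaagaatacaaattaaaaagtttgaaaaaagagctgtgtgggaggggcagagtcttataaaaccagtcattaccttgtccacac
Serpinb8: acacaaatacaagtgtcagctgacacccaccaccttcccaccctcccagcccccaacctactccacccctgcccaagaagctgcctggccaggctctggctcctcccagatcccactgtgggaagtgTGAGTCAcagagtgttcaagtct
It begins at -140 in Serpinb5, -45 in Serpinb12, -45 in Serpinb7, -94 in Serpinb2 and -23 in Serpinb8, counted from the RefSeq start. The base at N is G in Serpinb7 and Serpinb8, A in Serpinb5 and Serpinb2, and T in Serpinb12. A further RefSeq start of Serpinb12 has no match in its window, and a further start of Serpinb2 has the same match at -181. The letters TTCNNNGAA, a STAT motif, were sought too: they are in 7.02% of all windows and, among the genes followed, in the window of the further Serpinb2 start alone. Neighbouring paralogs descend from shared ancestors, so these matches are not independent of each other, and a match describes the letters and not a bound site.

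Of the 10 genes, 9 had enough counts to be tested, and 4 of them, Serpinb1a, Serpinb8, Serpinb12 and Serpinb13, were higher in knockout keratinocytes (background 17.4% of all tested genes). None was lower with edgeR, and none was lower at an unadjusted p under 0.05 or by DESeq2 or limma-voom. In 5 of the 9, these 4 and Serpinb3a, all knockout libraries lay above all control libraries, against 25.2% of all tested genes. None had all knockout libraries below all control libraries, against 26.5% of all tested genes, and 51.7% of all tested genes separated the groups in one direction or the other. The median log2 difference over the 9 was 1.07, against -0.02 over all genes. In bulk libraries, more or fewer cells of a type and more or less RNA per cell cannot be told apart, and this applies to every value that follows.

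**Figure D1:**
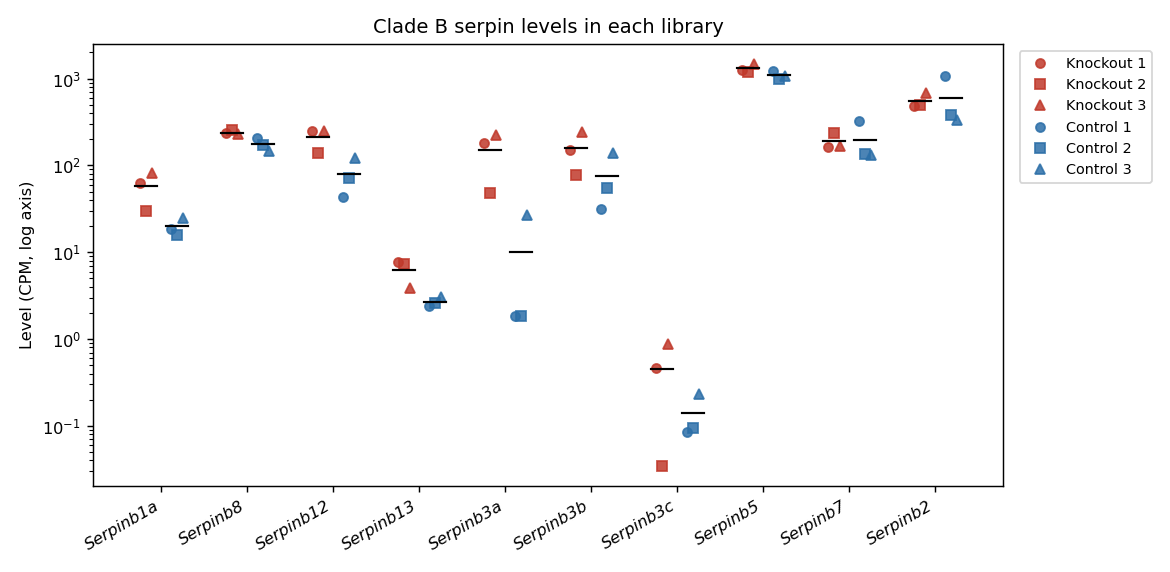
CPM (log axis) of the 10 clade B serpins in each library, with 3 knockout mice left of 3 control mice for each gene and black lines at the group means. Knockout and control points separate for Serpinb1a, Serpinb3a, Serpinb8, Serpinb12 and Serpinb13 and overlap for the other 5.

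The highest mean level per length belonged to Serpinb5 in both groups, although in control library 1 Serpinb2 was higher, at 459.8 CPM per kb of exon against 446.5 for Serpinb5. Serpinb5 (maspin, ENSMUSG00000067006, chr1:106861173-106883348, plus strand) is a clade B serpin that does not inhibit proteases and is known as a tumour suppressor of epithelia. It was at 1270.3, 1186 and 1471 CPM in knockout libraries 1 to 3, against 1228, 983 and 1076 CPM in control libraries 1 to 3. Knockout library 2 lay below control library 1, so the groups overlapped. The means were 1309 ± 146 CPM in knockouts and 1096 ± 124 CPM in controls (SD, n = 3 each), a log2 difference of 0.26 (SE 0.19, adjusted p = 0.302), which did not pass the test. Per kb of exon this is 476 ± 53.2 CPM in knockouts and 398 ± 45.0 CPM in controls. Of the summed level per kb of all 10 genes, Serpinb5 made up 41.4 ± 2.97% in knockouts and 46.4 ± 7.03% in controls.

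Serpinb2 and Serpinb7 followed in the order of levels per kb, and in both genes 1 control library stood apart. Serpinb2 (plasminogen activator inhibitor 2, ENSMUSG00000062345, chr1:107511423-107535478, plus strand) inhibits urokinase and tissue plasminogen activator. It was at 482, 492 and 677 CPM in knockout libraries 1 to 3, against 1080.2, 379 and 337 CPM in control libraries 1 to 3. All 3 knockouts lay between control library 1 and the other controls, and the log2 difference was -0.12 (SE 0.43, adjusted p = 0.844). Without control library 1 it was 0.62 (adjusted p = 0.0703), so neither value passed the test. Exons of Serpinb2 and of Serpinb10 on the same strand share 291 bases, or 12.4% of Serpinb2, and 7.52% of the Serpinb2 100-base words also occur in Serpinb10; how the counting treated these reads is not given in the sources used here. Serpinb10 was at 13.3, 16.2 and 9.51 CPM in knockouts, against 26.0, 9.34 and 11.4 CPM in controls, highest in control library 1 as well.

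Serpinb7 (ENSMUSG00000067001, chr1:107399655-107452689, plus strand) is a cornified-layer serpin whose loss in people causes the Nagashima type of palmoplantar keratosis. It was at 165, 238 and 169 CPM in knockout libraries 1 to 3, against 327, 136 and 130.2 CPM in control libraries 1 to 3. Control library 1 again lay above every knockout and the other 2 controls lay below every knockout. The log2 difference was -0.05 (SE 0.36, adjusted p = 0.923), and without control library 1 it was 0.52 (adjusted p = 0.0871). Summed Langerhans cell markers were at 1888, 874 and 1467 CPM in control libraries 1 to 3, against 946 to 1174 CPM in the knockout libraries. Control library 1 was highest there as well. Control library 3, which had the lowest Serpinb2 and Serpinb7 values, also lay above every knockout. Of the 8 Langerhans cell markers, Mfge8 was called higher (0.46) and Cd207 lower (-1.68). The same order of controls held for other immune cell sums. T and NK cell markers were at 411, 205 and 321 CPM in control libraries 1 to 3. Monocyte and macrophage markers were at 73.1, 36.5 and 56.4 CPM there. The part of any of these markers in the Serpinb2 and Serpinb7 values was not tested.

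Serpinb3a showed the largest difference of the 9 tested genes and missed the threshold by a narrow margin. It is one of the mouse counterparts of the human squamous cell carcinoma antigens, of which human SERPINB3 inhibits cysteine cathepsins such as cathepsin L. Serpinb3a (ENSMUSG00000044594, chr1:107045587-107052303, minus strand) had 4246, 1396 and 6199 reads in knockout libraries 1 to 3, against 43, 39 and 679 reads in control libraries 1 to 3. On the CPM scale that was 179.5, 48.7 and 225 in knockouts, against 1.85, 1.86 and 26.7 in controls. Every knockout lay above every control, but control library 3 stood far above the other controls, and knockout library 2 far below the other knockouts. The means were 151 ± 91.5 CPM in knockouts and 10.1 ± 14.3 CPM in controls (SD, n = 3 each). The fitted log2 difference was 3.88 (SE 1.22, a fold of 14.7) with an adjusted p of 0.0501. It passed under DESeq2 (adjusted p = 0.00829) and limma-voom (adjusted p = 0.0153), and without control library 3 it was 6.34 (adjusted p = 0.00997). Without a filter on low counts its adjusted p was 0.159.

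Serpinb3b, another of the Serpinb3 copies, was already expressed in controls. Serpinb3b (ENSMUSG00000073602, chr1:107153940-107278361, minus strand) was at 151, 78.6 and 241 CPM in knockout libraries 1 to 3, against 31.3, 54.3 and 138 CPM in control libraries 1 to 3. Control library 3 lay above knockout library 2, so the groups overlapped. Means were 157 ± 81.6 CPM in knockouts and 74.6 ± 56.2 CPM in controls (SD, n = 3 each), a log2 difference of 1.07 (SE 0.59, adjusted p = 0.186). With sex, read from Xist and Y-linked counts, as a covariate, it was 1.60 (adjusted p = 0.0244). Serpinb3c (ENSMUSG00000073601, chr1:107271201-107278371, minus strand) had 11, 1 and 24 reads in knockouts, against 2, 2 and 6 reads in controls, too few to be tested. Thus of 3 genes with closely matching upstream sequences, 1 stayed at or below 24 reads in every library. The annotated span of Serpinb3b covers nearly all of Serpinb3c, and their exons share 35 bases, or 2.11% of Serpinb3c. How the counting treated reads there is not given in the sources used here. On the minus strand the Serpinb3b span starts at chr1:107278361, beside the Serpinb3c start and not at the printed Serpinb3b window. Which start the Serpinb3b reads came from was not tested.

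Within a library, Serpinb3a and Serpinb3b had similar counts in knockouts and counts far apart in controls. The log2 ratio of Serpinb3a to Serpinb3b, from counts with 0.5 added, was 0.25, -0.69 and -0.10 in knockout libraries 1 to 3, against -4.06, -4.85 and -2.37 in control libraries 1 to 3. The groups did not overlap and differed by 3.58. For 3 libraries against 3 the smallest p that a two-sided exact permutation test can give is 0.1, which this pair reached (0.3 after Benjamini-Hochberg adjustment over the 6 pairs compared), so the design cannot place it under 0.05. Serpinb3a over Serpinb3c gave the same p of 0.1 by the exact permutation test, with ratios of 8.53, 9.86 and 7.98 in knockouts, against 4.12, 3.98 and 6.71 in controls. The ratio of Serpinb3b to Serpinb3c differed by 0.27 (exact permutation p = 0.9), with a Serpinb3c count as low as 1 read behind it. For the other 3 pairs, the differences were 0.35 for Serpinb12 over Serpinb13, 0.19 for Serpinb5 over Serpinb7 and -0.39 for Serpinb2 over Serpinb8, each with an adjusted exact permutation p of 0.72.

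Reads that match several copies can be split or dropped by counting, so the copies were also summed. Serpinb3a, Serpinb3b and Serpinb3c together were at 331, 127 and 467 CPM in knockout libraries 1 to 3, against 33.2, 56.3 and 165 CPM in control libraries 1 to 3. The groups overlapped, since control library 3 exceeded knockout library 2, and the log2 difference was 1.86 (SE 0.66, adjusted p = 0.0625). It passed the threshold without control library 3, at 2.78 (adjusted p = 0.0262), and without knockout library 2, at 2.24 (adjusted p = 0.0467). Of the 100-base words in Serpinb3a transcripts, 6.53% also occur in Gm8080, an unprocessed pseudogene beside it (chr1:107020137-107025325), and none occur in Serpinb3b or Serpinb3c. Gm8080, named after its values were seen, was at 19.5, 8.41 and 38.1 CPM in knockouts, against 1.03, 2.76 and 5.97 CPM in controls (log2 2.74, SE 0.71, adjusted p = 0.0230).

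**Figure D2:**
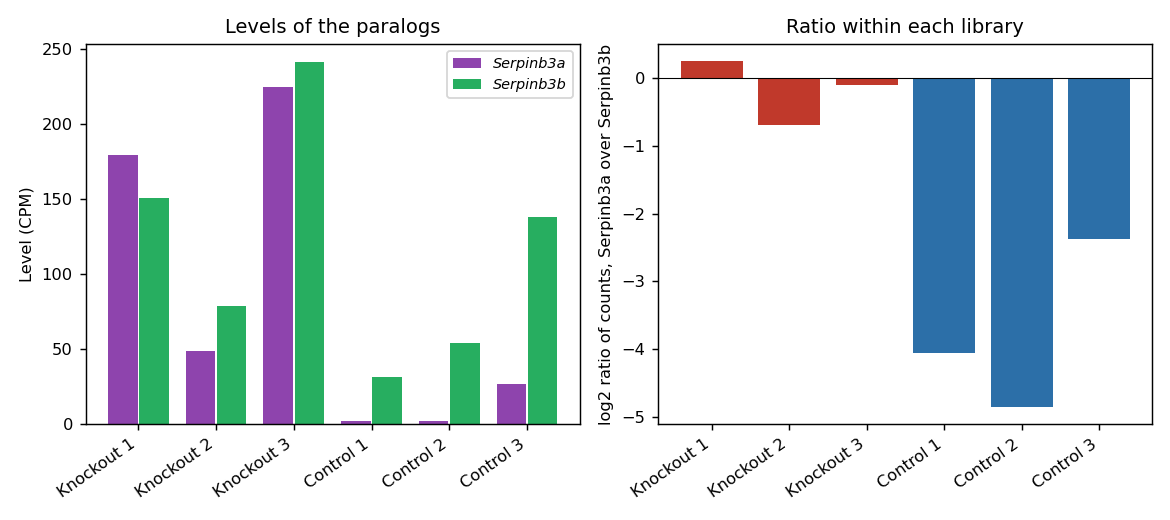
Bars at left give the CPM of Serpinb3a and Serpinb3b in each library, and bars at right the log2 ratio of their counts (with 0.5 added), with 3 knockout libraries left of 3 control libraries. The ratio lies between -0.69 and 0.25 in knockouts and between -4.85 and -2.37 in controls.

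Serpinb12 and Serpinb13, neighbours between Serpinb5 and Serpinb3a on chromosome 1, both rose. Serpinb12 (ENSMUSG00000059956, chr1:106934449-106957080, plus strand), whose human counterpart inhibits trypsin-like proteases, was at 249, 140.0 and 252 CPM in knockout libraries 1 to 3, against 43.3, 72.4 and 121 CPM in control libraries 1 to 3. The groups did not overlap, although knockout library 2 lay close to control library 3. Means were 214 ± 63.9 CPM in knockouts and 79.0 ± 39.4 CPM in controls (SD, n = 3 each), a log2 difference of 1.44 (SE 0.39, adjusted p = 0.0255). Leaving out knockout library 1, knockout library 3 or control library 2 ended the call (adjusted p = 0.0726, 0.0686 and 0.0842).

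Serpinb13 (headpin, ENSMUSG00000048775, chr1:106980984-107001195, plus strand), whose human counterpart inhibits cathepsins L and K, was expressed at a far lower level than Serpinb12. It was at 7.70, 7.30 and 3.92 CPM in knockout libraries 1 to 3, against 2.41, 2.62 and 3.07 CPM in control libraries 1 to 3. Its knockout values all exceeded the controls, but here knockout library 3 was the lowest knockout, where Serpinb12 had its lowest value in knockout library 2. Means were 6.30 ± 2.07 CPM in knockouts and 2.70 ± 0.334 CPM in controls (SD, n = 3 each), a log2 difference of 1.22 (SE 0.29, adjusted p = 0.0164). Its adjusted p was 0.0581 without knockout library 1, 0.0531 without knockout library 2 and 0.0511 without control library 1. Per kb of exon, Serpinb12 was at 85.6 ± 25.6 CPM and Serpinb13 at 3.77 ± 1.24 CPM in knockouts, against 31.6 ± 15.8 CPM and 1.61 ± 0.200 CPM in controls.

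Serpinb1a had the smallest adjusted p of the 9 tested genes. It is an inhibitor of neutrophil elastase, cathepsin G and proteinase 3, is abundant in neutrophils, and is also made by epithelial cells. Serpinb1a (ENSMUSG00000044734, chr13:32842092-32851185, minus strand) was at 63.4, 30.2 and 81.5 CPM in knockout libraries 1 to 3, against 18.6, 15.8 and 25.1 CPM in control libraries 1 to 3. The groups did not overlap, with knockout library 2 nearest to the controls. Means were 58.3 ± 26.0 CPM in knockouts and 19.9 ± 4.77 CPM in controls (SD, n = 3 each), a log2 difference of 1.55 (SE 0.35, adjusted p = 0.0145), and it kept its call without any single library. Beside it, the summed level of 15 neutrophil markers was 64.0, 26.4 and 46.9 CPM in knockouts, against 24.9, 8.72 and 16.7 CPM in controls. Only 2 of those markers had enough counts to be tested, and 1 of them, Cxcr2, was called higher. The granule and lineage genes Ly6g, Elane, Ctsg and Retnlg had no reads in any library. Cxcr2 was at 31.8, 9.21 and 23.4 CPM in knockouts, against 0.301, 0.476 and 1.89 CPM in controls. It averaged 21.5 ± 11.4 CPM in knockouts and 0.888 ± 0.869 CPM in controls. Much of the difference in the sum therefore lay in this 1 gene. Summed monocyte and macrophage markers ranged from 49.5 to 71.5 CPM in knockouts and from 36.5 to 73.1 CPM in controls. The overlap of the sums hides calls in both directions. Of 11 of these markers tested, 4 were higher and 1 was lower (background 17.4% and 18.8%). C1qa, C1qb and C1qc were higher, at log2 differences of 2.06, 1.66 and 1.33, and Ccr2 was lower at -2.40.

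Serpinb8, whose human counterpart inhibits furin, rose by the smallest amount of the 4 called genes. Serpinb8 (ENSMUSG00000026315, chr1:107590006-107610484, plus strand) was at 233, 255 and 228 CPM in knockout libraries 1 to 3, against 207, 171 and 148 CPM in control libraries 1 to 3. Knockouts lay above controls with little spread among themselves. Means were 239 ± 14.3 CPM in knockouts and 175 ± 29.8 CPM in controls (SD, n = 3 each), a log2 difference of 0.45 (SE 0.15, adjusted p = 0.0475). The call was lost in 11 of 17 alternative settings, among them upper-quartile scaling (log2 0.30, adjusted p = 0.135).

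Ranked by level per kb of exon, the knockout order was Serpinb5, Serpinb2, Serpinb7, Serpinb3b, Serpinb3a, Serpinb12, Serpinb8, Serpinb1a, Serpinb13 and Serpinb3c. The 4 genes from Serpinb7 to Serpinb12 overlapped with their neighbours in that order, and the others stood apart. In controls the order was Serpinb5, Serpinb2, Serpinb7, Serpinb3b, Serpinb8, Serpinb12, Serpinb1a, Serpinb3a, Serpinb13 and Serpinb3c, and neighbours overlapped except between Serpinb12 and Serpinb1a and between Serpinb13 and Serpinb3c. Serpinb3a was at 92.6 ± 56.1 CPM per kb in knockouts and 6.21 ± 8.79 CPM per kb in controls. Its share of the summed level was 7.61 ± 3.92% in knockouts and 0.776 ± 1.12% in controls, while the share of Serpinb2 was 20.2 ± 1.88% in knockouts and 26.97 ± 11.2% in controls. The summed level itself was 1132, 965 and 1377 CPM per kb in knockout libraries 1 to 3, against 1163, 694 and 792 CPM per kb in control libraries 1 to 3, with control library 1 above 2 of the knockouts.

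**Figure D3:**
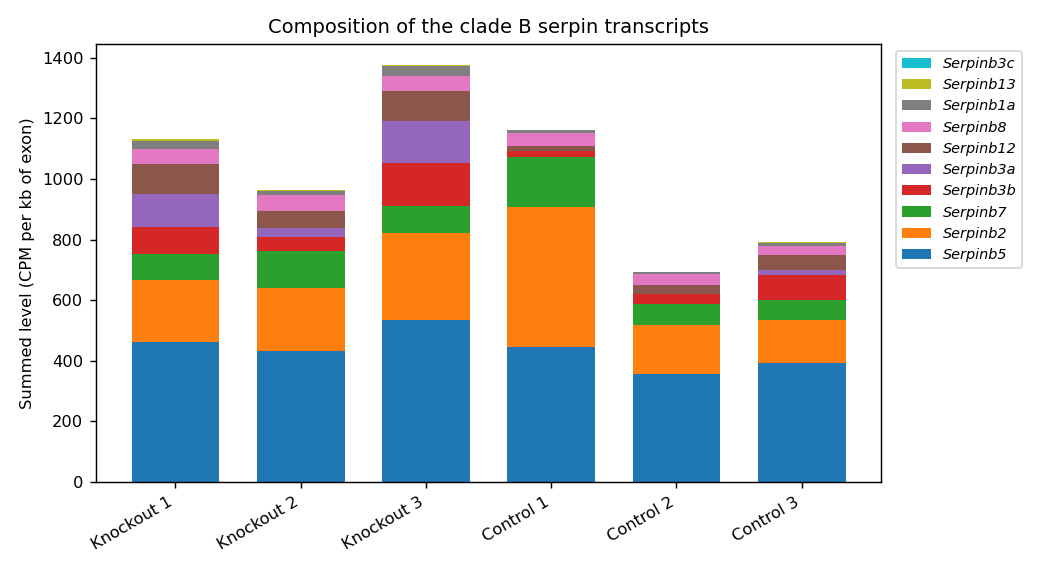
Stacked levels (CPM per kb of exon, linear axis from 0) of the 10 clade B serpins, with 3 knockout libraries left of 3 control libraries. Serpinb5 and Serpinb2 form the lower part of every bar, the Serpinb2 block is tallest in control library 1, and the Serpinb3a block averages 92.6 CPM per kb in knockouts and 6.21 in controls.

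The 17 other clade B serpins showed another balance: of 9 tested, 1 was higher and 4 were lower in knockout keratinocytes (background 17.4% and 18.8%), with a median log2 difference of -0.89. Serpinb6c rose to 43.0, 16.8 and 93.1 CPM in knockout libraries 1 to 3, against 2.54, 4.43 and 6.09 CPM in control libraries 1 to 3 (log2 3.54, SE 0.64, adjusted p = 0.00738). Serpinb6e, on chromosome 13 as well, with a coding sequence 72.0% identical to that of Serpinb6c, fell to 0.550, 0.349 and 1.38 CPM in knockouts, against 32.6, 38.5 and 25.7 CPM in controls (log2 -5.40, SE 0.43, adjusted p = 0.000657). Serpinb9, the granzyme B inhibitor of cytotoxic lymphocytes, fell to 3.07 ± 0.442 CPM in knockouts, against 12.01 ± 2.43 CPM in controls (SD, n = 3 each; log2 -1.97, adjusted p = 0.00146). Summed T and NK cell markers ranged from 125 to 156 CPM in knockouts and from 205 to 411 CPM in controls, and 11 of 13 tested were lower; their part in the Serpinb9 value was not tested. Serpinb6d and Serpinb1c also fell, by 2.85 and 2.12 on the log2 scale (adjusted p = 0.0184 and 0.0171), both at low levels. Serpinb6d averaged 0.522 CPM in knockouts and 3.73 CPM in controls, and Serpinb1c 0.394 CPM in knockouts and 1.70 CPM in controls. Serpinb6a, Serpinb6b, Serpinb10 and Serpinb11 did not pass the test, at log2 differences of 0.03, -0.89, -0.26 and -0.22. Of the 8 that were not tested, 5 had no reads in any library, and Serpinb3d, the remaining Serpinb3 copy, had 25, 3 and 56 reads in knockouts, against 0, 0 and 3 reads in controls.

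**Figure D4:**
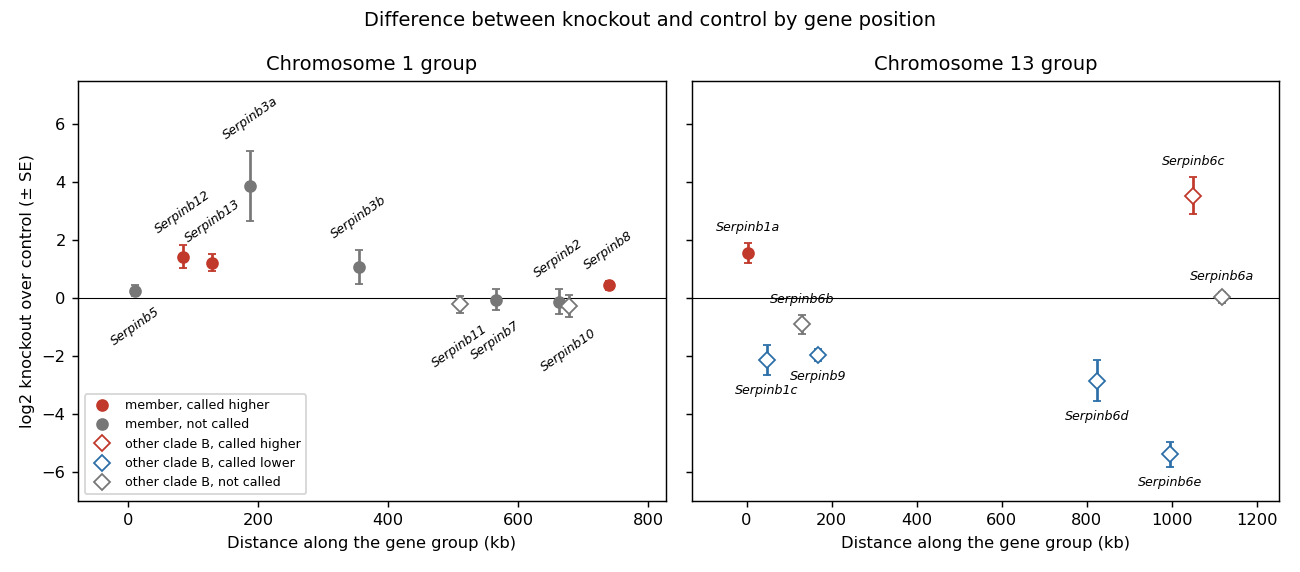
Log2 difference, knockout over control, of the tested clade B serpins along the chromosome 1 and chromosome 13 groups, by distance in kb from the start of each group, with bars for the SE (red, called higher; blue, called lower; grey, not called; filled circles, the 10 genes followed here; open diamonds, other clade B serpins). The genes of the chromosome 1 group lie at or above 0 apart from small negative values for Serpinb2, Serpinb7, Serpinb10 and Serpinb11, and on chromosome 13 Serpinb6c lies at 3.54, between Serpinb6e at -5.40 and Serpinb6a at 0.03.

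The nearest tested genes outside each group gave 1 call. On chromosome 1, Vps4b, an ATPase of endosomal sorting 64.4 kb before Serpinb5, had a log2 difference of 0.36 (SE 0.12, adjusted p = 0.0503). The nearest tested gene on the other side, Cdh19, lies 3278 kb away and did not pass the test (log2 -2.17, adjusted p = 0.135). Beside Serpinb1a, Wrnip1 was at 0.27 (adjusted p = 0.0863), and at the far end of the chromosome 13 group Bphl fell by 1.00 (adjusted p = 0.00262).

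Lists of cysteine cathepsins and of serine proteases chosen for a link to clade B serpins held calls in both directions. Being listed does not make a protease a known target of these serpins. The shares are to be read against 17.4% higher and 18.8% lower among all tested genes. Of 10 cysteine cathepsins tested, 2 were higher and 3 lower, with a median log2 difference of -0.23. Ctsl, the cathepsin L gene, was 142 ± 39.6 CPM in knockouts and 72.6 ± 28.6 CPM in controls (SD, n = 3 each; log2 0.97, SE 0.31, adjusted p = 0.0441), and was named after its values were seen. Ctsf rose by 0.52, while Ctsw, a cathepsin of cytotoxic lymphocytes, Ctsk and Ctsz had log2 differences of -1.97, -1.37 and -0.64, all called. Of 14 serine proteases tested, 3 were higher and 1 was lower. Klk5, a kallikrein of desquamation, averaged 144 ± 15.9 CPM in knockouts and 70.9 ± 7.25 CPM in controls (log2 1.03, SE 0.13, adjusted p = 0.00210). St14, the membrane protease matriptase, and Furin, the proprotein convertase that human SERPINB8 inhibits, rose by 0.72 and 0.91 on the log2 scale (adjusted p = 0.00378 and 0.00575). Gzmb, granzyme B, fell by 2.48 (adjusted p = 0.0323). The plasminogen activator genes Plau and Plat, named for their link to Serpinb2, did not pass the test, at log2 differences of -0.50 (adjusted p = 0.206) and 0.00 (adjusted p = 0.995).

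Serpins of other clades were tested in 19 cases, with 6 higher, 2 lower and a median log2 difference of 0.48, against 17.4% higher and 18.8% lower among all tested genes. Serpina3n, an acute-phase inhibitor, rose to 54.1 ± 11.7 CPM in knockouts, against 2.59 ± 0.801 CPM in controls (SD, n = 3 each; log2 4.39, SE 0.28, adjusted p = 0.000356). Serpina3m and Serpina3k, which overlap in the annotation so that their reads may be shared, rose too, by 4.18 and 3.98, from few reads. Serpina3m had 44, 26 and 40 reads in knockout libraries 1 to 3, against 0, 4 and 1 in control libraries 1 to 3. Serpina3k had 38, 94 and 42 reads in knockouts, against 4, 5 and 0 in controls. Serpinh1, the collagen chaperone, fell to 47.0 ± 8.15 CPM in knockouts, against 90.7 ± 13.2 CPM in controls (log2 -0.95, adjusted p = 0.00575).

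The state of the keratinocytes around these genes differed as well. Of 15 wound and stress genes, 12 were higher and the other 3 did not pass the test, with a median log2 difference of 3.15, among them Tgfa at 1.84, Il1f8 at 3.15, Il1a at 2.30 and Sprr2d at 6.37. Their summed level was 11025, 5278 and 17746 CPM in knockout libraries 1 to 3, against 2436, 2829 and 2718 CPM in control libraries 1 to 3. Knockout library 2 was the lowest of the knockouts there, as it was for Serpinb1a, Serpinb3a, Serpinb3b, Serpinb3c, Serpinb5 and Serpinb12, but not for Serpinb2, Serpinb7, Serpinb8 or Serpinb13. In control library 3, where Serpinb3a and Serpinb3b were highest among controls, the summed wound level lay between those of the other controls. Of 14 suprabasal differentiation genes tested, 10 were higher and 4 did not pass the test, with Tgm1 at 2.16, Cnfn at 2.30, Dsc1 at 2.05 and Ivl at 1.33. Their summed level ranged from 32271 to 48472 CPM in knockouts and from 15391 to 17979 CPM in controls. Of 8 basal keratinocyte markers, 2 were higher, with Itgb4 at 0.90, and 1, Krt15, was lower at -0.93. These counts stand against 17.4% higher and 18.8% lower among all tested genes. What part a shift between layers or toward a wound state had in the serpin values was not tested.

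Markers of other cells in the preparation were lower in part, where 18.8% of all tested genes were lower. Of 11 hair follicle markers, 10 were lower, and their summed level ranged from 163 to 223 CPM in knockouts and from 369 to 571 CPM in controls. Of 7 melanocyte markers, 6 were lower, with 12.5 to 26.4 CPM summed in knockouts and 56.2 to 196 CPM in controls. Sebaceous markers were lower in 4 of 8, with 656 to 1157 CPM in knockouts and 1124 to 1549 CPM in controls, and fibroblast markers in 3 of 8, with 36.0 to 47.0 CPM in knockouts and 30.1 to 96.5 CPM in controls. Summed mast cell markers ranged from 0.524 to 1.27 CPM in knockouts and from 0.747 to 1.00 CPM in controls, and summed endothelial markers from 1.48 to 2.20 CPM in knockouts and from 3.48 to 4.91 CPM in controls. The hair follicle, melanocyte and endothelial sums separated the groups, while the sebaceous, fibroblast and mast cell sums overlapped. What part these markers had in the serpin values was not tested.

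The genes whose profile over the 6 libraries came nearest to a clade B serpin were found among 10893 genes by the root mean square difference of centred log2 CPM. Among the nearest to Serpinb1a was Gsto1 at 0.227. Nearest to Serpinb13 were Plagl2 at 0.0939 and Ypel2 at 0.126, and nearest to Serpinb12 were Ammecr1 at 0.161 and Prkcq at 0.176. None of these is a serpin or lies in either serpin group.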

How the data were processed

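RNA from the keratinocytes of 3 knockout and 3 control mice was sequenced, and the authors deposited 1 table of whole-number read counts per gene. The submitters' processing notes name TopHat 1.3.3, featureCounts 1.4.6, Cuffdiff 1.3.0 and GRCm38 without giving roles or order. The annotation release, strand setting and treatment of multiply mapped reads are not given in the sources used here.

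Of 45513 identifiers, 44671 matched a symbol in the GENCODE annotation of GRCm38, which also gave positions and exon lengths and may not be the release the authors used; the others held 0.0517% to 0.118% of a library's counts and stayed in the fit. Genes passing filterByExpr (15513) were tested with edgeR 4.0.16 (R 4.3.3; TMM factors, robust quasi-likelihood fit of group, Benjamini-Hochberg adjustment over all tested genes, threshold 0.05). CPM values use TMM-scaled library sizes. The SE is the log2 difference divided by the square root of F. CPM per kb divides by the merged exon length of each gene. Depth was 20126395 to 28473479 counts per library; values are means with SD over 3 mice, and precision is limited by their number. Pairs of genes were compared by log2 count ratios within a library with two-sided exact permutation tests. Sequences come from RefSeq (GRCm38.p6), and coding identity was computed from the longest open reading frames.

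The alternatives were DESeq2 1.42.0, limma-voom (limma 3.58.1), other scalings and filters, a fit without robust estimation, a replicate block, sex (from Xist and Y-linked counts) as a covariate, a test against a fold of 1.5, a threshold of 0.01, and leaving out each library. The scripts were tested on simulated data. The labels do not say that equal replicate numbers pair mice, so the main fit has no block. Same-numbered libraries did not deviate together in every pair, which cannot settle whether mice were paired.

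The genes followed, the gene lists and the tests were chosen with earlier results of these data known. Named are all 10 genes, the tested other clade B serpins, up to 4 called genes of smallest p per list, the 2 nearest profiles of the 3 genes of smallest p (1 of them is not reported here), and the genes flanking each group; exceptions are marked as named after their values were seen.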

Additional observations from a re-analysis of the deposited data

How the results depend on the processing

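Among the 17 alternatives per gene, Serpinb1a, Serpinb8, Serpinb12 and Serpinb13 stayed higher in knockouts, but their calls were lost in 3, 11, 6 and 5 of them. The 4 higher genes became 2 without a filter on low counts, 0 in the test against a fold of 1.5 and 0 at an adjusted p under 0.01, and ranged from 1 to 4 with 1 library left out (1 without knockout library 1, 2 without knockout library 3 and 2 without control library 2). Over all genes, upper-quartile scaling gave 1756 higher; the test against a fold of 1.5 gave 527 higher and 692 lower; an adjusted p under 0.01 gave 1115 higher and 1009 lower; leaving out 1 library gave 1586 to 2754 higher and 1714 to 2771 lower. The summed Serpinb3 genes ranged from 1.44 to 2.78 with 1 library left out. With 1 library left out, the pair differences ranged from -0.52 to 0.72 for Serpinb3b over Serpinb3c, -0.11 to 0.76 for Serpinb12 over Serpinb13, -0.16 to 0.43 for Serpinb5 over Serpinb7 and -0.60 to 0.0179 for Serpinb2 over Serpinb8. Serpinb2 changed sign under limma-voom (0.0686), with the replicate block (0.0860) and without control library 1 (0.62; range over left-out libraries -0.40 to 0.62). Serpinb7 changed sign under limma-voom (0.0630), with the replicate block (0.0767) and in the fits without knockout library 1 (0.05), knockout library 3 (0.04) and control library 1 (0.52; range -0.27 to 0.52). Same-numbered libraries had correlations of deviations of -0.114, -0.0979 and 0.419, which with 3 mice a group cannot show whether the numbers pair the mice. The replicate block in edgeR gave 2422 higher and 2701 lower genes. It called Serpinb3a (4.62, adjusted p = 0.0106) and ended the Serpinb8 call (adjusted p = 0.0536). Serpinb3a passed in 9 of 17 alternatives. The causes were not tested. Only 3 mice a group, and 1 to 24 reads for Serpinb3c, limit what can be told apart.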
